A study of Mus musculus with 703 samples.

Results

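Heat shock and small chaperone genes were followed across strain, diet and treatment in mouse gastrocnemius, a calf muscle made largely of fast fibres. The set held 10 genes, taken by gene symbol from the count table. They were the small chaperone genes Hspb1, Hspb6, Hspb7 and Cryab, the HSP70 genes Hspa1a, Hspa1b and Hspa8, the HSP110 gene Hsph1, the J protein gene Dnajb1 and the HSP90 gene Hsp90aa1. All 10 were found among the 19088 genes of the table, and all 10 passed the filter on low counts in every comparison.

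Polyadenylated RNA was sequenced from 703 mice of 20 CC-RIX strains, with 1 library per mouse. A CC-RIX strain is the F1 cross of inbred lines of the Collaborative Cross, which descends from 8 founder strains, and the 20 crosses here drew on 19 parental lines. From 6 weeks of age the mice ate a diet labelled 10% fat + fiber, the chow control, or one labelled 44% fat + fiber, a high fat and high sugar diet, so that every group received added fiber. Metformin, a glucose-lowering drug, was added to the drinking water of part of the older cohort from month 7 on, at 5 mg/mL. The 469 untreated mice were 234 on 10% fat and 235 on 44% fat, and 236 of them were females and 233 males. Metformin was given to 57 females and 59 males on 10% fat and to 59 females and 59 males on 44% fat. Tissue came from cohorts of 6 and 12 months, but the labels give no mouse's age. Untreated mice may belong to either cohort and treated mice only to the older one, so metformin and age cannot be told apart in any value given below. A strain, sex and diet held 2 to 8 untreated mice (median 6) and 1 to 4 treated mice (median 3).

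Chaperones bind proteins that are unfolded or being folded and keep them from clumping. Small heat shock proteins hold such proteins without using ATP, and several of them sit on the sarcomere of striated muscle, where they are among its most abundant chaperones. HSP70 proteins bind and release their clients in an ATP cycle, J proteins start that cycle by driving ATP hydrolysis, HSP110 proteins let the nucleotide leave, and HSP90 completes the folding of kinases, receptors and myosin. Some of these genes are always on, such as Hspa8, whereas Hspa1a, Hspa1b, Dnajb1, Hsph1 and Hsp90aa1 are switched on within minutes to hours by the heat shock factor HSF1, which binds repeats of the letters GAA and their complement TTC.

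Letters near the start of some of the genes are shown for the repeats of GAA and TTC that they hold or lack. The part of these repeats in the members' values was not tested. RefSeq windows on GRCm38.p6, holding 250 bases before and 50 after each annotated start site, were matched for 7 of the 10 members. Capitals mark pairs of these repeats, GAANNTTC or TTCNNGAA, or runs of 3, GAANNTTCNNGAA, searched on both strands, where the run of 3 contains the pairs. The pair GAANNTTC was in 7.86% of the 32851 windows of all genes, TTCNNGAA in 8.52% and the run of 3 in 0.603%. The 250 bases before the start are given 5′ to 3′ for Hspb1 (chr5:135887669-135887918, plus strand), Hspa1b (chr17:34959239-34959488, minus strand), Hspa1a (chr17:34972157-34972406, minus strand) and Hspb7 (chr4:141420529-141420778, plus strand), and 30 bases that lie after the start for Hsph1 (chr5:149636279-149636308, minus strand).
Hspb1: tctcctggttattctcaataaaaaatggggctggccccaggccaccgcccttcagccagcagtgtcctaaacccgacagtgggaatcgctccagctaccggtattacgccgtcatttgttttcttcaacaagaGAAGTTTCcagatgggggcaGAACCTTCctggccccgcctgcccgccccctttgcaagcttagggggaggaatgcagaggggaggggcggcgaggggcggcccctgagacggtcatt
Hspa1b: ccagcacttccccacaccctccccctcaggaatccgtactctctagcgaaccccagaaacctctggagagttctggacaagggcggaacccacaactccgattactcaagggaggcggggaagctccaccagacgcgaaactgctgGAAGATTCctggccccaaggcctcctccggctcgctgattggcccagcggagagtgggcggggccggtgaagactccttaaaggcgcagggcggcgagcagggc
Hspa1a: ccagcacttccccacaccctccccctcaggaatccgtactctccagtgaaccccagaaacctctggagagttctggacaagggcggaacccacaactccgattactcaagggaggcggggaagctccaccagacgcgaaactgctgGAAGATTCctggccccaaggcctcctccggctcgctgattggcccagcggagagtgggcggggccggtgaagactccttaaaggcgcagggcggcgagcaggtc
Hspb7: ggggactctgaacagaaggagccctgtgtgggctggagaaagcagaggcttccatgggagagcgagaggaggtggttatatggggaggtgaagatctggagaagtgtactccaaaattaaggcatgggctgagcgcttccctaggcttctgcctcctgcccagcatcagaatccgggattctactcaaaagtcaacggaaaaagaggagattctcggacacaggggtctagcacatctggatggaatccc
Hsph1: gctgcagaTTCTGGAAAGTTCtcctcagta

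Hspb1 held the pair GAANNTTC at 2 places, the nearer 97 bases before its start, and Hspa1a and Hspa1b each held it once, at the same place. The windows of Hspa1a and Hspa1b were the same letters at 247 of the 250 positions before the start and differed at 3. Hsph1 held the run of 3, which begins 36 or 15 bases after its start depending on which of its annotated start sites is used, and the pair TTCNNGAA 33 or 54 bases before it, and Hspb6 held the pair GAANNTTC 120 bases before 1 of its start sites. No match was found in the windows of Hspb7 and Dnajb1, which says only that these letters are not there. Cryab, Hsp90aa1 and Hspa8 had no window and were not searched.

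On GRCm38, Hspa1b (ENSMUSG00000090877, chr17:34956436-34959238) and Hspa1a (ENSMUSG00000091971, chr17:34969190-34972156) lie side by side on the minus strand of chromosome 17. Hspb1 (ENSMUSG00000004951, chr5:135887919-135889563) and Hsph1 (ENSMUSG00000029657, chr5:149614287-149636376) are on chromosome 5, and Cryab (ENSMUSG00000032060, chr9:50752758-50756633) and Hspa8 (ENSMUSG00000015656, chr9:40800984-40805200) on chromosome 9. Hspb7 (ENSMUSG00000006221) is at chr4:141420779-141425311, Hspb6 (ENSMUSG00000036854) at chr7:30552178-30555443, Dnajb1 (ENSMUSG00000005483) at chr8:83608175-83611902 and Hsp90aa1 (ENSMUSG00000021270) at chr12:110690605-110702728. Of all 100-base stretches of the Hspb1 transcripts, 44.0% were found letter for letter in another gene, the pseudogene Hsp25-ps1. The share was 56.5% for Hspa1a and 49.9% for Hspa1b, mostly in each other, 38% for Hsp90aa1, 28.5% for Hspa8 and 9.92% for Cryab, whose transcripts overlap Hspb2. It was 1.0% for Hspb6 and 0 for Hspb7, Hsph1 and Dnajb1. Reads from such stretches were divided among genes by the authors' estimation, so the split between Hspa1a and Hspa1b is uncertain.

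Library totals ran from 27368536 to 96100529 counts with a median of 47876086. No pair of libraries with the same labels held identical values, out of 1404 pairs, and the closest pair differed by a chi-squared of 13.3 per degree of freedom. The tissue label was checked with 9 fast fibre markers, among them the muscle creatine kinase gene Ckm and the skeletal actin gene Acta1. The summed level of the 9 had a median of 151600 CPM, estimated counts scaled to a common library total, and a range of 104900 to 193000. The median was 1896 CPM for 8 slow fibre markers. These sums hold different genes and do not measure the share of each fibre type. A total of 15 libraries did not match their sex label, 4 lay closest to another strain than their own, and 100 had a summed liver marker level over 10 times the median. The sequencing identifiers fell into a lower range of 544 and an upper range of 159 libraries, and this range was a term in every fit. A further 4 libraries, all of untreated males on 10% fat, stood apart in the members themselves. Their Hspa1b was at 1329, 487.5, 356.3 and 215 CPM against a median of 4.86 CPM. Several values are given with and without these libraries, and others only with them, which does not mean that those do not rest on them.

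Levels between genes were compared as CPM per kilobase of exon, where every base in an exon of any annotated transcript counts. That length was 4.301 kilobases over 10 transcripts for Hspa8, 7.266 over 11 for Hsph1 and 2.967 over 1 for Hspa1a. The order of the genes therefore depends in part on which transcripts are annotated. Small chaperones and Hspa8 led the set, and the stress-inducible genes were at the bottom. Hspb6, a partner of actin and of other small chaperones, had a median of 207.2 CPM per kilobase over the 703 mice and ran from 64.1 to 367.6. Cryab, which holds desmin and titin in muscle, had a median of 190.1 with a range of 87.8 to 734.5, and Hspa8, the constitutive HSP70, had a median of 182.7 with a range of 120.4 to 413.1. These ranges overlapped over most of their length, so the order of the top 3 is within the spread between mice. Hspb7, a chaperone of the thin filament and filamin, followed at a median of 100 CPM per kilobase, and Hspb1, which protects actin filaments, at 52. Hsp90aa1, the inducible cytosolic HSP90, had a median of 10.7 and Hsph1, the HSP110 exchange factor, a median of 7.12 CPM per kilobase. The lowest medians were those of Hspa1b at 1.733, Hspa1a at 1.725 and Dnajb1, a J protein that brings clients to HSP70, at 1.447, and their ranges overlapped. In a bulk muscle sample a lower level in each cell and fewer cells of a type cannot be told apart.

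**Figure D1:**
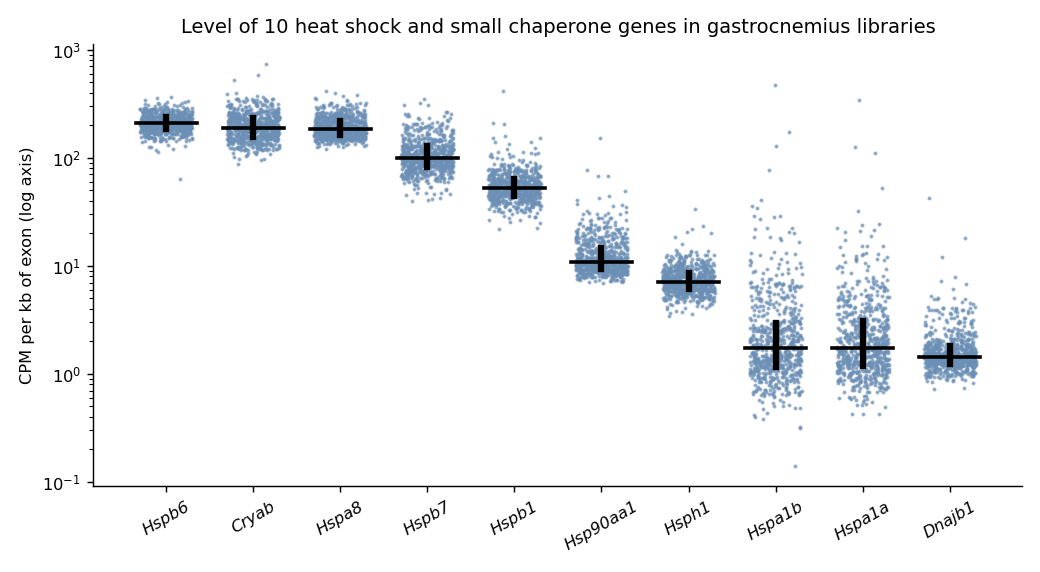
Level of each member in every mouse, in CPM per kilobase of exon on a log axis, with 1 point per library, a horizontal bar at the median and a vertical bar over the quartiles, ordered by median. Hspb6, Cryab and Hspa8 have medians of 207.2, 190.1 and 182.7, whereas Hspa1b, Hspa1a and Dnajb1 have medians below 2, with Hspa1b reaching 474.1 in its highest mouse.

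The spreads were widest for the 3 genes of lowest level. Hspa1b ranged from 0.393 to 1329 CPM with a median of 4.86 CPM, a ratio of highest to lowest of 3378, and Hspa1a from 1.26 to 1021 CPM with a median of 5.12 CPM, a ratio of 808.6. The ratio was 57.4 for Dnajb1, 22 for Hsp90aa1, 19.1 for Hspb1 and 9.72 for Hsph1. It was 8.66 for Hspb7, 8.36 for Cryab, 5.73 for Hspb6 and 3.43 for Hspa8. Once strain, sex, diet, treatment and identifier range were fitted, the SD left between mice was 1.19 log2 units for Hspa1b, above 99.6% of the genes whose mean level lay within 0.5 log2 units of its own, and 1.09 for Hspa1a, also above 99.6%. For Hspb6 the SD left was 0.22 log2 units and for Hspa8 0.28, the smallest of the 10 members. Both were below the median of 0.31 over all 17740 genes but above 80% and 83.7% of the genes of similar level, so that each member varied more than most genes at its own level.

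High values came in a few mice and most often in Hspa1b and Hspa1a, whose reads are partly shared. A member lay over 4-fold above the level fitted for its strain, sex, diet, treatment and range in 39 of the 703 mice, and 2 or more members did so in 31 of them. In 4 mice 3 or more members did so, and in 1 mouse 5 or more. Hspa1b did so in 38 mice and Hspa1a in 32, Hsp90aa1 in 4, Dnajb1 in 3, Hspb1 in 1, and the remaining members in none. These mice were 28 males and 11 females of 18 strains, 21 on 10% fat and 18 on 44% fat, and 28 of them were untreated. The highest was replicate 8 of the untreated males on 10% fat, of the strain (CC075/UncJ x CC042/GeniUncJ)F1, at 1329 CPM of Hspa1b and 1021 CPM of Hspa1a. In the same mouse Dnajb1 was at 134.5, Hsp90aa1 at 596.7, Hsph1 at 243.7, Hspb1 at 430.2 and Hspa8 at 1777 CPM, each the highest of all 703 libraries. Its Hspb6 was at 450.3 and its Hspb7 at 153.3 CPM, against medians of 476.3 and 277 CPM, and its Cryab at 487.6 CPM against a median of 281.2 CPM, so that of these small chaperones only Cryab was above its median there. Replicate 7 of that group, of the same strain, had 487.5 CPM of Hspa1b, replicate 89, of (CC051/TauUncJ x CC060/UncJ)F1, had 356.3, and replicate 98, of (CC019/TauUncJ x CC042/GeniUncJ)F1, had 215. Cryab was above its median in these mice too, at 365.1, 351.1 and 499.4 CPM. The summed level of 12 immediate early genes, which are switched on within minutes of a stimulus, was 445, 253.1, 312.5 and 299.8 CPM in these 4 mice against a median of 168 CPM, and its part in the heat shock values was not tested.

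**Figure D2:**
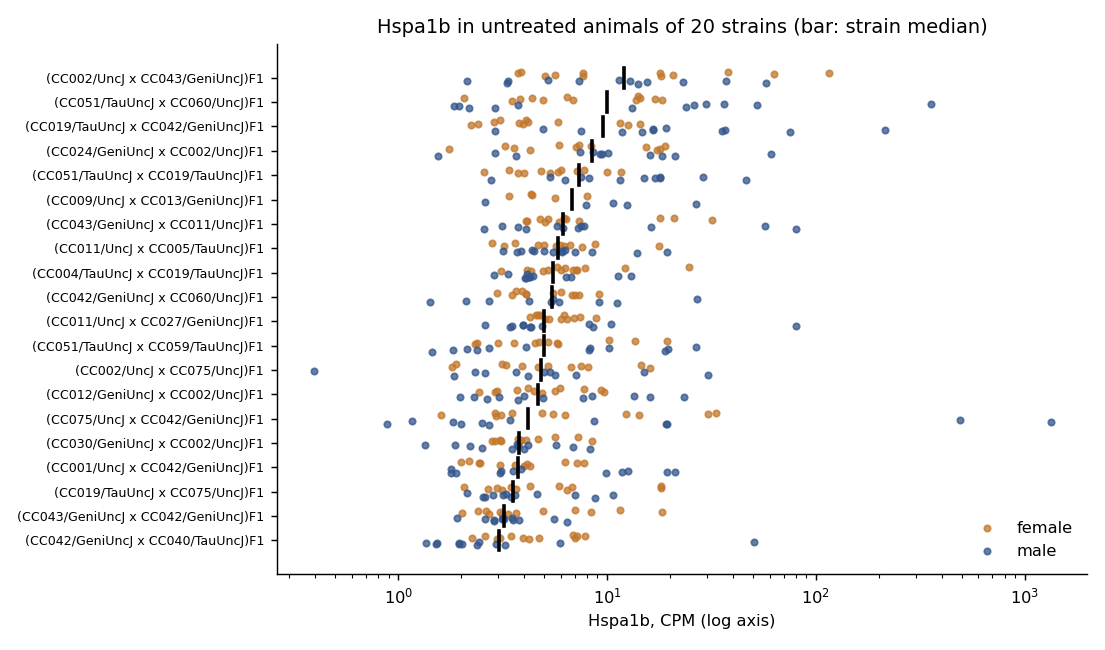
Hspa1b in CPM on a log axis for the 469 untreated mice, arranged by strain, with 1 point per mouse coloured by sex and a bar at the strain median, ordered by that median. Strain medians lie between 3.03 and 12.1 CPM, and single mice reach up to 1329 CPM.

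The diet comparison asked whether muscle chaperone expression differed between mice on 44% fat and mice on 10% fat. In untreated mice 3 small chaperones rose on 44% fat, Hspb7, Cryab and Hspb6, and Dnajb1 fell, whereas the other 6 members did not pass the test. That is 4 of 10 members called at an adjusted p below 0.05, where 18.4% of the 16384 genes tested were called, 9.55% higher and 8.82% lower. The call of Dnajb1 was lost in 8 of 14 alternative settings.

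Hspb7 ran from 118.1 to 961.7 CPM with a median of 255.8 in the 234 mice on 10% fat, and from 112.8 to 707.6 with a median of 299.9 in the 235 mice on 44% fat. Cryab ran from 129.9 to 1086 CPM with a median of 264.6 on 10% fat, and from 155 to 553.4 with a median of 301.6 on 44% fat. Hspb6 ran from 278.7 to 845.1 CPM with a median of 463.1 on 10% fat, and from 287.7 to 753.1 with a median of 494.7 on 44% fat. For all 3 the median was higher on 44% fat and the highest value was lower, and the groups overlapped over most of their range. The log2 fold change was 0.23 ± 0.040 (SE) for Hspb7 (adjusted p = 6.57e-07), 0.17 ± 0.029 for Cryab (3.16e-07) and 0.094 ± 0.020 for Hspb6 (5.98e-05), or 17.5%, 12.8% and 6.7% higher. Over all genes tested the median log2 fold change was -0.0024 and the median of its size 0.035. Within strains Cryab was higher on 44% fat in 19 of 20, and Hspb6 and Hspb7 each in 16 of 20. Diet took 5.63% of the variance of Hspb7, 5.11% of that of Cryab and 3.35% of that of Hspb6, above 98.7%, 98.5% and 96.8% of all genes.

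Hspb1, the remaining small chaperone, gave no such shift. Its median was 54.2 CPM on 10% fat and 54.7 CPM on 44% fat, and its log2 fold change was -0.024 with a 95% interval of -0.10 to 0.054 (adjusted p = 0.744). Dnajb1 ran from 2.38 to 134.5 CPM with a median of 4.79 on 10% fat and from 2.35 to 23 with a median of 4.53 on 44% fat, and fell by 0.17 ± 0.063 on the log2 scale (adjusted p = 0.0352). Without the 4 high libraries its change was -0.0405 and under limma voom -0.10, neither called. Its adjusted p ran from 0.0214 to 0.86 over 14 alternatives, and it lost its call in 8 of them. Within strains it was higher on 44% fat in 10 and lower in 10. Hspa1a and Hspa1b had log2 fold changes of -0.21 ± 0.12 (adjusted p = 0.244) and -0.23 ± 0.14 (0.257), and without the 4 libraries these turned to 0.042 and 0.059. Hsph1 at -0.084 ± 0.032 (adjusted p = 0.0506), Hsp90aa1 at -0.13 ± 0.053 (0.0639) and Hspa8 at -0.038 ± 0.026 (0.357) also did not pass. The changes of Hspb7, Cryab and Hspb6 without the 4 libraries were 0.23, 0.18 and 0.093, all called.

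The same 3 genes were the members called among the 234 metformin-treated mice, none of which entered the untreated fit. There 10.5% of 16418 genes were called, 4.82% higher. Hspb7 rose by 0.31 ± 0.057 (adjusted p = 1e-05), Cryab by 0.25 ± 0.041 (5.54e-07) and Hspb6 by 0.098 ± 0.028 (0.00935) on the log2 scale. Medians in mice on 10% and 44% fat were 258.1 and 309 CPM for Hspb7, 258.8 and 307.8 CPM for Cryab and 449.3 and 486.1 CPM for Hspb6, again with overlapping ranges. Hspb7 was higher on 44% fat in 17 of 20 strains, Cryab in 15 and Hspb6 in 14. Hspb1 had a log2 fold change of 0.11 ± 0.049 (adjusted p = 0.129), and Dnajb1, which fell in untreated mice, one of 0.043 ± 0.062 (0.759). In the smaller upper identifier range alone, Hspb6 was at 0.17 in untreated and 0.065 in treated mice and Hspb7 at 0.27 in treated mice, none of them called there, where 1.8% of genes were called in untreated and 4.15% in treated mice. No member was called for a difference of the diet effect between sexes, where 0.226% of genes were called, or between metformin and no metformin, where 0.00564% were called.

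**Figure D3:**
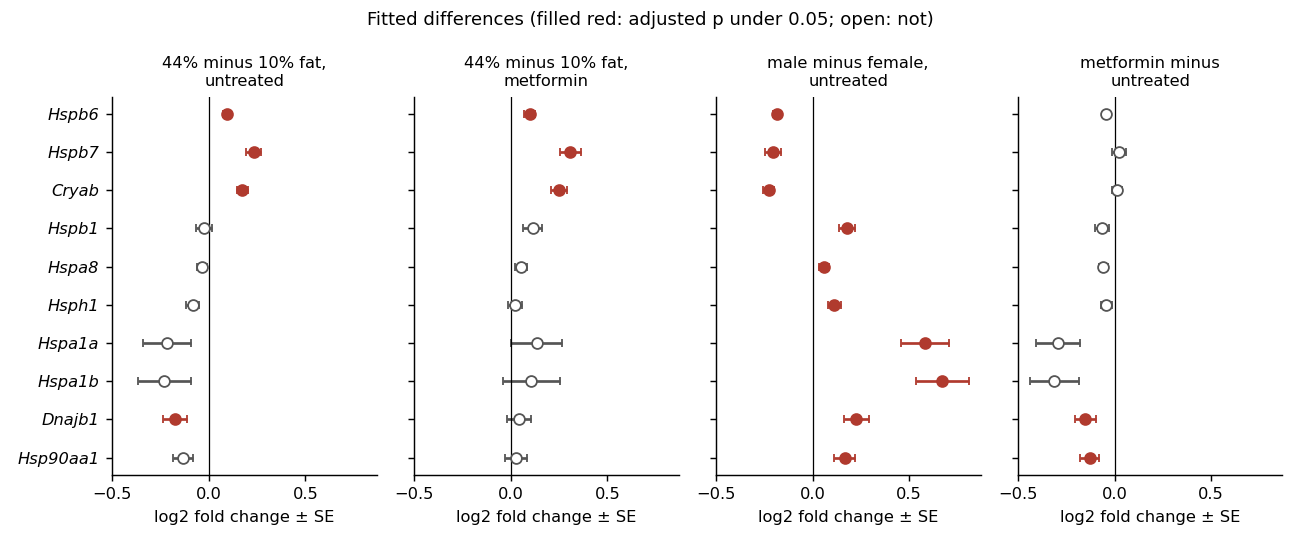
Fitted log2 fold change of each member with a bar of 1 SE on each side for 44% against 10% fat in untreated mice, 44% against 10% fat in metformin-treated mice, males against females in untreated mice, and metformin against none in all mice, with filled red points where the adjusted p was below 0.05 and open points where it was not. Hspb7, Cryab and Hspb6 are higher on 44% fat in both sets of mice, and the same 3 are lower in males.

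**Figure D4:**
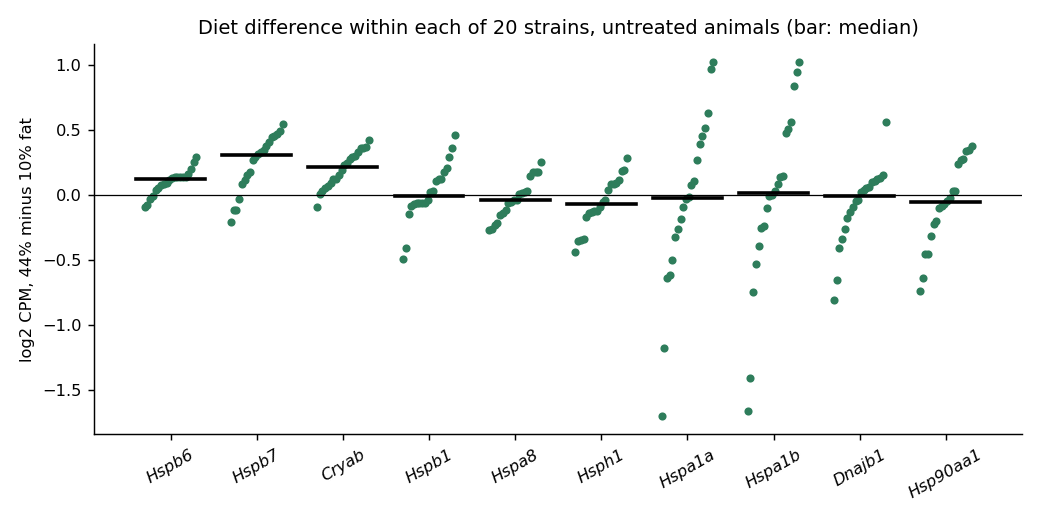
Difference of mean log2 CPM, 44% minus 10% fat, within each of the 20 strains in untreated mice, with 1 point per strain sorted by value and a bar at the median, for the 10 members. Cryab is above 0 in 19 strains and Hspb6 and Hspb7 in 16, whereas Hspa1a spreads from -1.71 to 1.02.

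Among fibre and cell type markers in the same untreated comparison, 3 of 8 slow fibre markers were called, all higher on 44% fat, with Tnni1 at 0.15 and Atp2a2 at 0.083 on the log2 scale. All 7 adipocyte markers were called, 5 of them higher, and the summed adipocyte level had a median of 196.7 CPM on 10% fat (range 74.8 to 917) and 202.5 CPM on 44% fat (range 73 to 1198). The summed slow fibre level had a median of 1896 CPM on 10% fat (range 623 to 3985) and 1882 CPM on 44% fat (range 530.2 to 4571), with no marker at 0 in all libraries. Of 9 fast fibre markers 2 were called, Myh2 at 0.14 and Pvalb at -0.071, and their summed median was 152100 CPM on 10% fat (range 114500 to 180900) and 150200 CPM on 44% fat (range 104900 to 183000). Of 5 endothelial markers 2 were called, Cdh5 at 0.076 and Pecam1 at 0.064, with summed medians of 144.8 CPM (range 86.4 to 183.3) and 150.2 CPM (range 92.4 to 190.6). Of 4 smooth muscle markers 2 were called, Cnn1 at -0.23 and Acta2 at -0.10, with summed medians of 99.3 CPM (range 50.1 to 188.4) and 93.3 CPM (range 52.7 to 222.5). Immediate early genes had 3 of 12 called, Ier3 at 0.13, Egr1 at -0.29 and Egr2 at -0.17, and of the cold-inducible pair Cirbp was called at 0.077. No macrophage, liver or blood marker was called. The part of these markers in the member values was not tested.

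Other genes of the chaperone system were taken from lists of families, and their counts are read against the 18.4% of all genes called. Of 16 other HSP70 and exchange factor genes 3 were called in untreated mice, with Hspa2 higher by 0.093 and Hspa4l, another HSP110 gene, lower by 0.14 on the log2 scale. Of 9 other J protein genes 5 were called, 4 higher, among them Dnaja4 at 0.14 ± 0.026 (adjusted p = 1.21e-05), and Dnaja1 fell by 0.10. Of 12 genes of the HSP90 machinery 4 were called, all lower, with Chordc1 at -0.080 and the myosin chaperone Unc45b at -0.054. Of 4 other small chaperones 1 was called, Hspb8, a partner of BAG3 in clearing damaged filament proteins, which fell by 0.067 ± 0.019 (adjusted p = 0.00481), opposite to Hspb7, Cryab and Hspb6. Hspa9, the mitochondrial HSP70, rose by 0.063 ± 0.0091 (adjusted p = 1.25e-09) and was the only one of 7 mitochondrial chaperones called. Of the 3 heat shock factors tested Hsf2 was called, at 0.048, and Hsf1, Hsf4 and the binding protein gene Hsbp1 were not. Of 10 endoplasmic reticulum chaperones 3 were called, Dnajc3 at 0.047, Sdf2l1 at -0.14 and Pdia4 at -0.075, and of 8 subunits of the TRiC chaperonin 1, Cct7, at -0.034.

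The sex comparison set untreated males against untreated females, and it was a broad one, with 65.2% of all genes called, 29.5% higher and 35.7% lower in males. Hspb6, Hspb7 and Cryab fell in males, and the other 7 members rose. That all 10 members were called is read against that background.

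Hspb6 ran from 336.2 to 845.1 CPM with a median of 511.3 in the 236 females and from 278.7 to 721.7 with a median of 452.8 in the 233 males. Its log2 fold change was -0.19 ± 0.020 (adjusted p = 8.71e-19), and it was lower in males in 20 of 20 strains. Cryab ran from 176.3 to 553.4 CPM with a median of 306.2 in females and from 129.9 to 1086 with a median of 255.7 in males, a log2 fold change of -0.23 ± 0.029 (adjusted p = 4.39e-13), lower in 19 of 20 strains. Hspb7 had medians of 299.1 and 259.6 CPM and a log2 fold change of -0.21 ± 0.040 (adjusted p = 1.5e-06), lower in males in 16 of 20 strains. Groups overlapped for all 3, with the male median below the female one. Sex took 13.7% of the variance of Hspb6, 8.90% of that of Cryab and 5.00% of that of Hspb7, against a median of 1.59% over all genes. The 8 slow fibre markers were all lower in males, with a summed median of 2296 CPM in females (range 1288 to 4571) and 1519 CPM in males (range 530.2 to 2761), and none at 0 in all libraries. Of 9 fast fibre markers 8 were called, 5 of them higher, with Tnni2 at 0.25 and Myh2 at -0.25, and their summed median was 148300 CPM in females (range 109600 to 183000) and 154200 CPM in males (range 104900 to 182900). All 7 adipocyte markers were called, 6 of them lower in males, with Retn at -1.18, Cfd at -1.04 and Lep at 0.23, and summed medians of 226.8 CPM (range 73 to 1045) and 170.4 CPM (range 74.8 to 1198). Of 5 endothelial markers 3 were called, Kdr at 0.080, Cdh5 at 0.073 and Pecam1 at -0.041, and no smooth muscle, macrophage or blood marker was called. The part of these markers in the member values was not tested.

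The inducible genes rose in males through a part of the mice. Hspa1b ran from 1.61 to 114.9 CPM in females and from 0.393 to 1329 CPM in males, but its medians were 5.05 and 5.01 CPM, and the upper quartile was 7.39 CPM in females and 11.8 CPM in males. Hspa1a had medians of 5.24 and 5.16 CPM and upper quartiles of 8.63 and 12.4 CPM. The fitted log2 fold changes were 0.67 for Hspa1b and 0.58 for Hspa1a, and without the 4 high libraries they were 0.35 and 0.28, both still called. Both genes were higher in males in 13 of 20 strains. Dnajb1 rose by 0.23, Hsp90aa1 by 0.17 and Hspa8 by 0.058 (adjusted p = 0.0411) on the log2 scale, but without the 4 libraries these changes were 0.083, 0.067 and 0.043, no longer called. Hspb1 rose by 0.18 and Hsph1 by 0.11, and both were higher in males in 14 of 20 strains. Without the 4 libraries they were at 0.12 and 0.077, both still called. Over 14 alternatives the adjusted p ran from 9.54e-06 to 0.546 for Hspb1, 0.00032 to 0.413 for Hsph1 and 1.99e-06 to 0.0876 for Hspa1a. Each of these genes lost its call in 1 of them, and Hspa1b kept its call in all 14. Sex took 2.03% of the variance of Hspb1, 1.11% of that of Hsph1 and 0.26% to 0.61% of that of the other members that rose. Of 12 immediate early genes 5 were called, 4 of them lower in males, with Fosb at -0.42, Egr1 at -0.39 and Ier3 at 0.25, and the summed median was 177.9 CPM in females (range 93.5 to 499.6) and 165.1 CPM in males (range 90.5 to 614.4). The cold-inducible genes Rbm3 and Cirbp were both higher in males, by 0.52 and 0.19 on the log2 scale, with a summed median of 44.2 CPM in females and 60.04 CPM in males. The part of these genes in the member values was not tested.

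Of 4 other small chaperones 3 were called, 2 higher and 1 lower in males. Hspb8 rose by 0.36 ± 0.019 (adjusted p = 5.09e-58), again opposite to Hspb6, Hspb7 and Cryab, and Hspb3, a muscle small chaperone, rose by 0.18. Hspb11 fell by 0.19 ± 0.033 (adjusted p = 2.7e-08). Of 10 endoplasmic reticulum chaperones 8 were called, all lower in males, with the glycoprotein chaperone Canx at -0.20 and Hyou1 at -0.15. Of 7 mitochondrial chaperones 4 were called, all higher, with Dnaja3 at 0.18 and Trap1 at 0.11. Of the 3 heat shock factors tested Hsf1 rose by 0.11 ± 0.015 (adjusted p = 1.3e-11) and Hsf4 by 0.060 (0.0235), Hsf2 was at 0.016 (0.378), and the binding protein gene Hsbp1 rose by 0.049 (6.81e-05). Calls among other HSP70 genes and exchange factors (6 higher and 7 lower of 16), the HSP90 machinery (4 and 4 of 12) and other J proteins (5 and 1 of 9) went both ways.

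Metformin was set against no treatment over all 703 mice, with 16.2% of 17740 genes called, 9.21% lower. Dnajb1 and Hsp90aa1 fell, and the other 8 members did not pass. Dnajb1 ran from 2.35 to 134.5 CPM with a median of 4.63 in the 469 untreated mice and from 2.78 to 16.8 with a median of 4.65 in the 234 treated mice. Hsp90aa1 ran from 27.2 to 596.7 CPM with a median of 43 in untreated and from 27.8 to 192.3 with a median of 41.6 in treated mice. The medians of both genes were close, and the untreated group had the higher upper end. Dnajb1 fell by 0.15 (adjusted p = 0.0382) and Hsp90aa1 by 0.13 (0.0459) on the log2 scale. Without the 4 high libraries, all of them untreated, these were -0.089 and -0.083, no longer called, and neither was called under limma voom (-0.10 for both). Over 14 alternatives the adjusted p ran from 0.0244 to 0.955 for Dnajb1 and from 0.0219 to 0.968 for Hsp90aa1. Dnajb1 lost its call in 6 of them and Hsp90aa1 in 7. Hsp90aa1 was lower in 15 and Dnajb1 in 13 of 20 strains.

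Hspa1a and Hspa1b had log2 fold changes of -0.29 (adjusted p = 0.0602) and -0.31 (0.0706) with medians of 5.22 and 4.83 CPM and of 5.03 and 4.36 CPM in untreated and treated mice. They were lower with metformin in 16 and 15 of 20 strains. Hspa8 was at -0.058 (adjusted p = 0.0805), Hspb6 at -0.043 (0.0886), Hspb1 at -0.064 (0.233), Hsph1 at -0.043 (0.331), Hspb7 at 0.023 (0.736) and Cryab at 0.012 (0.817). In the lower identifier range alone 18.9% of genes were called and in the upper range alone 0.00566%, 1 gene, and no member was called there. Of the other chaperones, 4 of 7 mitochondrial ones were called, all lower, with Hspe1 at -0.081 and Hspd1 at -0.045, which together form the chamber in which matrix proteins fold. Dnaja1 fell by 0.10 and Fkbp5, an HSP90 co-chaperone of steroid receptors, by 0.25 ± 0.060 (adjusted p = 0.00104), while Hspb8 rose by 0.078 and Hspb3 by 0.067. The summed immediate early gene level had a median of 170.7 CPM in untreated (range 90.5 to 614.4) and 165.2 CPM in treated mice (range 94.2 to 379.1), with 1 of 12 genes called, Nr4a1, at -0.15. Of 7 adipocyte markers 3 were called, all lower, with Lep at -0.30 and Cidec at -0.25, and summed medians of 199.3 CPM in untreated (range 73 to 1198) and 179.7 CPM in treated mice (range 89.9 to 1698). Of 5 endothelial markers 3 were called, Kdr at 0.085, Emcn at -0.081 and Pecam1 at -0.065, and of 4 smooth muscle markers 2, Acta2 at -0.12 and Tagln at -0.090. Of 9 fast fibre markers 2 were called, Myh4 at 0.059 and Myh1 at -0.080, of the cold-inducible pair Cirbp at 0.083, and no slow fibre, macrophage, liver or blood marker. The part of these markers in the member values was not tested.

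The metformin difference depended on sex for Hspb1, Hspa1a, Hspa1b and Dnajb1, 4 of the 10 members where 1.87% of genes were called, 1.3% with a lower fold change in males, as in each of these 4. Hspb1 had medians of 53.5 CPM in untreated and 52 CPM in treated females on 10% fat, and of 53.9 and 55 CPM on 44% fat. In males the medians were 54.5 and 46.4 CPM on 10% fat and 56.9 and 51 CPM on 44% fat. Treated males on 10% fat had the lowest median, and the ranges of all groups overlapped. The male minus female difference in log2 fold change was -0.33 ± 0.068 for Hspb1 (adjusted p = 0.00367), and it was -0.27 without the 4 high libraries and -0.29 under limma voom, both called. In the upper identifier range alone it was -0.17, not called. For Hspa1b it was -1.02 ± 0.23 (adjusted p = 0.00707), for Hspa1a -0.88 ± 0.21 (0.0109) and for Dnajb1 -0.40 ± 0.10 (0.0176), but without the 4 libraries these were -0.56, -0.47 and -0.25, none of them called, and none was called under limma voom.

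The metformin difference also varied among strains for 7 members, where 8.89% of genes were called. Adjusted p was 1.19e-09 for Hspa1b, 1.18e-08 for Hspa1a, 2.23e-05 for Hsp90aa1, 0.000692 for Hspa8, 0.0139 for Hsph1, 0.0296 for Dnajb1 and 0.0435 for Cryab. All but Dnajb1 were called without the 4 high libraries, Hspa8 and Hsp90aa1 were also called under limma voom, and no member was called in the upper identifier range alone. For Hspa8 the difference of mean log2 CPM between treated and untreated mice was lowest at -0.26 within (CC002/UncJ x CC043/GeniUncJ)F1 and reached 0.36 within (CC043/GeniUncJ x CC042/GeniUncJ)F1. For Hsp90aa1 the same strain had the upper end, 0.54, and (CC024/GeniUncJ x CC002/UncJ)F1 the lower, -0.49.

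Strain gave the most calls of the comparisons made, 93.2% of genes, and all 10 members were among them. It took 31.5% of the variance of Hsph1, 24% of that of Cryab and 23.1% of that of Hspa8, where the median over all genes was 15.3% and the quartiles 7.81% and 28.8%. The shares were 15.9% for Hsp90aa1, 15.7% for Hspa1a, 13.9% for Hspb6, 11.1% for Hspb1, 10.4% for Hspa1b, 9.54% for Dnajb1 and 6.45% for Hspb7. Hsph1 had the lowest strain mean in (CC011/UncJ x CC005/TauUncJ)F1, at 42.9 ± 7.81 CPM (SD), and the highest in (CC019/TauUncJ x CC042/GeniUncJ)F1, at 80.2 ± 29.2 CPM. Cryab ran from 219.5 ± 41 CPM in (CC012/GeniUncJ x CC002/UncJ)F1 to 390 ± 169.2 CPM in (CC019/TauUncJ x CC042/GeniUncJ)F1. Hspa8 ran from 712.7 CPM in (CC011/UncJ x CC027/GeniUncJ)F1 to 1067 CPM in (CC002/UncJ x CC043/GeniUncJ)F1, and Hspb7 from 250.3 CPM in (CC012/GeniUncJ x CC002/UncJ)F1 to 400.1 CPM in (CC009/UncJ x CC013/GeniUncJ)F1. The last strain was sequenced in the upper identifier range alone among untreated mice, so its level and that range cannot be told apart. With the strains in order of their means, all 19 neighbouring pairs differed by less than the larger of their SDs, for every member. That bears on the order of neighbours and not on whether strains differ, because sorting places similar means side by side. Strain means of Hspa1b ran from 4.22 to 83.3 CPM, but the highest, that of (CC075/UncJ x CC042/GeniUncJ)F1, had an SD of 282.9 CPM and holds the pair of mice with the highest values, and the strain medians ran from 3.03 to 12.1 CPM.

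Treated mice, which did not enter these means, gave the strain order again for some members. Over the 20 strains the untreated and treated mean log2 CPM correlated with r = 0.79 for Cryab (permutation, adjusted p = 1e-04 over the 10 members), 0.79 for Hspb6 (0.00025), 0.77 for Hsph1 (0.000367) and 0.73 for Hspb7 (0.000775). Spearman's rho was 0.79, 0.80, 0.74 and 0.68, and r without the 2 strains farthest from the median was 0.76, 0.66, 0.69 and 0.58. For Hspa8, Hspb1 and Dnajb1 r was 0.58, 0.58 and 0.56, and without those strains 0.44, 0.33 and 0.44. For Hsp90aa1, Hspa1a and Hspa1b it was 0.42 (permutation, adjusted p = 0.0782), 0.40 (0.088) and 0.37 (0.105). The last 3 did not pass.

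The diet difference varied among strains for 5 members, Hspa1b (adjusted p = 4.09e-08), Hspa1a (5.14e-08), Hsp90aa1 (0.000158), Dnajb1 (0.000168) and Hspb1 (0.0235), where 3.27% of genes were called. Without the 4 high libraries Hspa1b and Hsp90aa1 were called and the other 3 were not, and under limma voom or in the upper identifier range alone none of the 5 was called. For Hspa1b the difference of mean log2 CPM between 44% and 10% fat ran from -1.67 in (CC075/UncJ x CC042/GeniUncJ)F1, the strain with the highest pair of mice, to 1.02 in (CC009/UncJ x CC013/GeniUncJ)F1. Hspb7 (adjusted p = 0.106), Cryab (0.605) and Hspb6 (0.701), which rose on 44% fat, did not pass for a difference among strains.

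Members varied together from mouse to mouse in 2 groups. After strain, sex, diet, treatment and identifier range were fitted, the residual log2 CPM of Hspa1a and Hspa1b correlated over the 703 mice with r = 0.95 and rho = 0.91, though reads from their shared stretches were split between them. Hspa1b and Hsp90aa1 correlated at r = 0.88 and rho = 0.83, Hspa8 and Hsp90aa1 at 0.84 and 0.83, and Hspa8 and Hsph1, which share no 100-base stretch, at 0.82 and 0.81. Dnajb1 correlated with Hspa1b at r = 0.73 and rho = 0.63. The second group was Hspb6, Hspb7 and Cryab, with r between 0.68 for Hspb6 and Cryab and 0.72 for Hspb7 and Cryab. Between the groups r was lower, from -0.041 for Hspb7 and Dnajb1 (permutation p = 0.277) to 0.46 for Cryab and Hsph1. Hspb1 lay nearer the first group, at 0.47 to 0.69 (median 0.67) with the 6 HSP70, HSP110, J protein and HSP90 genes. With the 3 small chaperones it was at 0.33 for Hspb7, 0.38 for Hspb6 and 0.60 for Cryab. Of the 45 pairs 42 had an adjusted p below 0.05, and 37 reached a permutation p of 1e-05, the smallest that the permutations can give. Without the 2 libraries farthest from the median r was 0.94 for Hspa1a and Hspa1b, 0.70 for Hspa1b and Dnajb1 and 0.71 for Hspb7 and Cryab, and in the upper identifier range alone it was 0.94, 0.71 and 0.63.

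**Figure D5:**
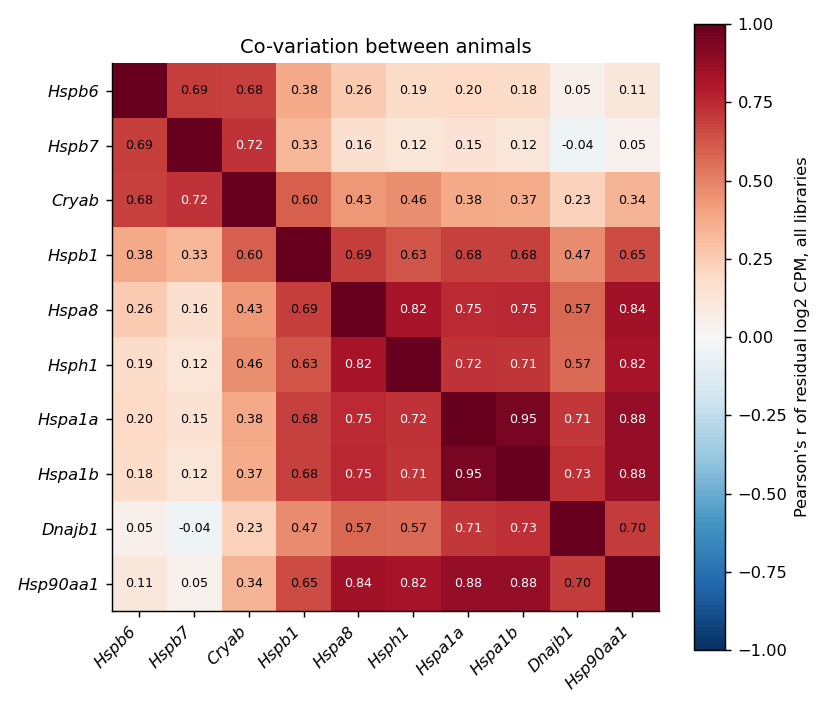
Pearson's r between the residual log2 CPM of each pair of members over 703 mice, as a grid coloured from -1 to 1 with the value in each cell. Hspa1a, Hspa1b, Hsp90aa1, Hspa8, Hsph1 and Dnajb1 form one block of high values, with 0.95 as the highest, and Hspb6, Hspb7 and Cryab another at 0.68 to 0.72.

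The genes most like each member, by r over 703 mice among 10092 genes with a mean of at least 1 log2 CPM, were taken as the 3 highest. Hsp90aa1 was closest to the J protein gene Dnaja1, at r = 0.92, and Dnajb1 to Dnaja1 (0.75) and the kinase gene Sik1 (0.74). Hspa8 was followed by Hsp90aa1, Hsph1 and the chaperonin gene Cct3 (0.81), and Hsph1 by Hspa8, Hsp90aa1 and P4ha1 (0.82), a collagen prolyl hydroxylase. Hspa1a and Hspa1b were closest to each other, Hsp90aa1 and Dnaja1 (0.83 and 0.85), and Hspb1 to Hspa8 (0.69), Hspa1a and Hspa1b. Hspb7 was closest to Fhl1 (0.81), Lmcd1 (0.79) and Ankrd2 (0.77), which encode LIM domain and titin-associated proteins of striated muscle. Hspb6 was closest to Fhl1 (0.73), Actn2 (0.70), the Z disc alpha-actinin, and Hspb7 (0.69), and Cryab to Dnaja4 (0.73), Hspb7 (0.72) and Ankrd2 (0.71).

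Summed marker levels moved with the members to different degrees over the 100 relations computed. Immediate early genes correlated most with Dnajb1, at r = 0.61 and rho = 0.52, then with Hspa1b at 0.52 and Hspa1a at 0.51, and least with Hspb6 at 0.13. A pair of cold-inducible RNA-binding proteins, Cirbp and Rbm3, which rise when tissue cools, correlated at -0.46 with Hsph1 and -0.34 with Hspa8. Slow fibre markers correlated at 0.34 with Hspb6, 0.33 with Hspb7 and 0.23 with Cryab, and at -0.12 to -0.035 with the HSP70, HSP110, J protein and HSP90 genes. Endothelial markers correlated at -0.28 with Hspa8 and -0.25 with Hspb1, and macrophage markers at -0.024 to 0.048 with all members. For the values of at least 0.13 in size named here the permutation p was at most 0.00052 and the adjusted p at most 0.00173. Within the lower and the upper identifier range r was 0.58 and 0.66 for immediate early genes and Dnajb1, -0.47 and -0.46 for the cold-inducible pair and Hsph1, and 0.37 and 0.24 for slow fibre markers and Hspb6. The part of these markers in the members' values was not tested.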

How the data were processed

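Gastrocnemius RNA of 703 mice was sequenced as polyadenylated libraries, read as pairs of 100 bases. Per the study's methods both mates were combined and aligned as single ends to a transcriptome of the 8 founder strains, so a pair can count more than once in a library total, and reads shared by several genes or founder alleles were divided by EMASE within GBRS. The authors deposited these estimated counts per gene as whole numbers after a filter that removed genes with hardly any reads. They also deposited a log2-scale table, the counts after the variance-stabilising transformation of DESeq2, and gene positions on GRCm38, the build named in the submitters' processing notes. The aligner and versions are not given in the sources used here.

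Groups were taken from the labels. The labels give every mouse the same replicate number, so replicate numbers in the text are running numbers within a group that only name a mouse. Each library is 1 mouse, so p-values measure the spread between mice. The paper states that diet and housing were assigned by litter. No fit holds a term for litter or cage, so mice that share one were counted as independent. Members were taken by symbol. Members and gene lists were chosen with earlier results of these data known. Counts were filtered with filterByExpr, scaled by TMM and tested with edgeR 4.0.16 (R 4.3.3) by its quasi-likelihood test, with Benjamini-Hochberg adjustment over all genes tested and a threshold of 0.05. Strain, sex, diet and identifier range were terms in every fit in which they varied, and treatment where both arms entered. The earlier quasi-likelihood method of edgeR with a dispersion trend was used in place of its newer default, a choice made after the data were seen, from a test on simulated counts in which the newer method called too many unchanged low-count genes. Under the newer method Hsph1 passed in the untreated diet comparison (adjusted p = 0.0454, against 0.0506, with a range of 0.0274 to 0.959 over the alternatives) and Hspa1a in the metformin comparison (0.0411, against 0.0602, with a range of 0.00901 to 0.941), and no other call on a member changed.

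Log2 CPM used a prior count of 2. Correlations used residuals of the full model and two-sided tests with 1e+05 permutations. Variance shares are omega squared. Named were all members, at most the 2 called genes with the largest change per direction of each other list, and the 3 genes most like each member (mean of at least 1 log2 CPM, no clone or predicted-gene name). Alternatives were DESeq2 1.42.0, limma 3.58.1 (voom, and a trend on the deposited log2 values), other scaling and filters, no range term, each range alone, and leaving out libraries of unlike sex or strain or with high liver markers. Leaving out libraries of unlike strain or the 4 high libraries, the newer edgeR method, and correlations in the upper range alone were chosen after the data were seen.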

Additional observations from a re-analysis of the deposited data

Results flagged for a closer look

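The effect of diet differed among strains for 5 members by the interaction test of edgeR, with adjusted p = 4.09e-08 for Hspa1b, 5.14e-08 for Hspa1a, 0.000158 for Hsp90aa1, 0.000168 for Dnajb1 and 0.0235 for Hspb1, where 3.27% of all genes were called. Without the 4 high libraries Hspa1a, Dnajb1 and Hspb1 were no longer called, and none of the 5 was called under limma voom or in the upper identifier range alone. The effect of metformin differed between sexes for 4 members, with a male minus female difference in log2 fold change of -0.3304 for Hspb1, -0.4041 for Dnajb1, -0.8795 for Hspa1a and -1.0221 for Hspa1b, where 1.87% of all genes were called. Without the 4 high libraries Hspa1b, Hspa1a and Dnajb1 were at -0.56, -0.47 and -0.25, not called, and they were not called under limma voom, whereas Hspb1 was called in both settings. The effect of metformin also differed among strains for 7 members, with adjusted p = 1.19e-09 for Hspa1b, 1.18e-08 for Hspa1a, 2.23e-05 for Hsp90aa1, 0.000692 for Hspa8, 0.0139 for Hsph1, 0.0296 for Dnajb1 and 0.0435 for Cryab, where 8.89% of all genes were called. Dnajb1 was not called without the 4 high libraries, of the 7 only Hspa8 and Hsp90aa1 were called under limma voom, and none in the upper identifier range alone.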

How the results depend on the processing

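Over the alternatives for single members, 647 values kept their direction and side of the threshold, 78 lost the call, 16 gained it and 39 turned in direction. Of the summary values, 65 kept their size and 19, all numbers of genes called, moved by over 1.5 times. No value that turned passed the test in either setting, and the cause was not tested. The median correlation between members, 0.572, lay between 0.551 and 0.5948 under its alternatives. No paired analysis was possible because the labels give every mouse the same replicate number and so tie no mice across groups.

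With a mean of at least 5 CPM, where fewer genes were tested, 6402 genes (74.1%) were called for sex and 8527 (98.6%) for strain, against 10687 (65.2%) and 15263 (93.2%). With limma voom 0.641% of genes were called for diet by strain (3.27% in edgeR), 2.85% for metformin by strain (8.89%) and 0 genes for metformin by diet (1; 1444 in voom at an unadjusted p below 0.05). In that setting log2 values turned to 0.0337 for Dnajb1, 0.1230 for Hspa1a and 0.0145 for Hspa1b in diet by sex, and to 0.0020 for Hspb1 in diet.

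In the lower identifier range alone 0.0856% of genes were called for diet by sex (0.226% in both ranges), 3.27% for diet in treated mice (10.5%), 0.0727% for metformin by diet (0.00564%) and 0.85% for metformin by sex (1.87%), and Hspa1a turned to 0.0872 in diet by sex. In the upper range alone, with fewer mice, 1.8% of genes were called for diet in untreated mice (18.4%), 4.15% in treated mice, 0.663% for diet by strain, 24.2% for sex, 51.8% for strain, 0.00566% for metformin (16.2%) and 1.2% for metformin by strain, and 0 genes for diet by sex, metformin by diet and metformin by sex (720, 627 and 716 at an unadjusted p below 0.05 in edgeR). There log2 values turned to 0.0742 for Hspa8 and 0.1645 for Hspb1 for diet in untreated mice. For diet in treated mice they turned to -0.0564 for Hspb1, -0.0308 for Hspa8, -0.4191 for Hspa1a, -0.3462 for Hspa1b, -0.0572 for Dnajb1, -0.0596 for Hsph1 and -0.1716 for Hsp90aa1. In diet by sex they turned to 0.0059 for Hspb1, -0.0210 for Hspb6, -0.1775 for Hsph1, -0.0730 for Hspa8 and -0.2516 for Hsp90aa1. In metformin by diet they turned to -0.0958 for Hspa8, -0.0984 for Cryab, -0.0837 for Hspb6, -0.0796 for Hspb7, -0.1595 for Hspb1, -0.0180 for Hsph1, -0.2037 for Hspa1b, -0.2347 for Hspa1a and -0.0545 for Hsp90aa1. For metformin they turned to -0.0849 for Hspb7 and -0.0716 for Cryab, and Hspb6 to 0.0606 in metformin by sex.

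Without the 4 libraries of highest Hspa1b, chosen after the data were seen, log2 values turned to 0.0280 for Hspb1, 0.0423 for Hspa1a and 0.0594 for Hspa1b in diet, to 0.2151 for Dnajb1, 0.0291 for Hspb1, 0.4518 for Hspa1b and 0.5285 for Hspa1a in diet by sex, and to -0.0071 for Hspa1b in metformin by diet. Depth was at least 27368536 counts per library, and among the members the spread left between mice after fitting was widest for Hspa1b and Hspa1a.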
